A study of Mus musculus with 40 samples.

Results

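The interferon receptor and transcription factor axis was followed as 9 genes, taken by symbol from the deposited count table: the receptor chains Ifnar1 and Ifnar2, the kinase Jak1, the signal transducer Stat2, the interferon regulatory factors Irf1, Irf2, Irf7 and Irf9, and the inhibitor Usp18. All 9 were found among the 35976 symbols of the table, and all 9 passed the filter on low counts in every comparison. RNA was measured in bulk in mouse bone marrow cells whose genotype was wild type (WT), Dnmt3a knockout, Sting knockout or a double knockout (DKO) of Dnmt3a and Sting. The series describes the Dnmt3a knockout as Dnmt3a f/f, Mx1-Cre. Dnmt3a is a DNA methyltransferase, and Sting, encoded by Tmem173, is the adaptor through which DNA in the cytosol induces interferon.

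Dnmt3a knockout is compared with WT in 3 sorted populations: long-term haematopoietic stem cells (LT-HSC), the pool of common myeloid and granulocyte-macrophage progenitors (CMP/GMP), and progenitors of megakaryocytes and red cells (MEP). MEP WT has 3 libraries and every other sorted group 4. Marrow cells selected for c-kit, a mixed fraction of progenitors, have 2 WT, 2 Dnmt3a knockout, 2 Sting knockout and 3 DKO libraries. Mx1-Cre is driven by a promoter that itself responds to interferon. No source used here says how it was induced, whether WT cells carried it, or how old the mice were, and the labels name no animals, so p-values measure the spread between libraries. Short-term stem cells were not analysed here.

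Type I interferons bind a receptor made of the chains IFNAR1 and IFNAR2, which bring together the kinases TYK2 and JAK1. The kinases phosphorylate STAT2, which with IRF9 is part of the complex ISGF3, and ISGF3 binds the interferon-stimulated response element (ISRE) in front of antiviral genes. IRF1 activates and IRF2 mostly represses through similar elements, IRF7 amplifies the production of interferon and is itself an ISGF3 target, and USP18 docks on IFNAR2 and shuts signalling down. In marrow, interferon is known for driving dormant stem cells into cycle, and Irf2 for holding stem cells back from that response.

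The genes are spread over 8 chromosomes of the GRCm38 assembly, all protein coding, with positions from GENCODE M21. Ifnar2 (chr16:91372783-91405589) and Ifnar1 (chr16:91485238-91507441) lie in one cluster on the plus strand, in that order. Jak1 lies at chr4:101152367-101265282 on the minus strand, Stat2 at chr10:128270559-128292849 on the plus strand, and Irf1 at chr11:53770014-53778374 on the plus strand. Irf2 lies at chr8:46739732-46847458, Irf9 at chr14:55603571-55610030 and Usp18 at chr6:121245906-121270917, each on the plus strand. Irf7 is the most compact, at chr7:141262706-141266481 on the minus strand. Exons of other genes overlap up to 9.46% of a gene's exon bases (Ifnar2 with Gm21970, on the same strand), 4.44% for Usp18 with Gm44148 and 1.19% for Irf7 with Phrf1, both on the opposite strand. Reads in these stretches are uncertain, since a shared strand gives no separation and no source used here gives the strand setting.

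The bases just upstream of the RefSeq starts (assembly GRCm38.p6) show which genes carry the letters that the axis itself reads. RefSeq windows were matched for 8 of the 9 genes. The 250 bases before each start were searched for the ISRE core GAAANNGAAA on both strands, for the STAT site GAS as TTCNNNGAA, which reads the same on both strands, and for TATAAA on the gene's strand. The stretches with a match are shown because they set the regulatory factors side by side, each written 5′ to 3′ on the gene's strand with the matched letters in capitals.
Irf2, chr8:46739496-46739554, plus strand: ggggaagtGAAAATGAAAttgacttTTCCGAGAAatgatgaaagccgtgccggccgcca
Stat2, chr10:128270251-128270310, plus strand: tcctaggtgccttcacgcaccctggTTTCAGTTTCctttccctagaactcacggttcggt
Irf1, chr11:53769899-53769957, plus strand: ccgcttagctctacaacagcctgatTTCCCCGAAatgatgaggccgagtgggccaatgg
Ifnar2, chr16:91372544-91372602, plus strand: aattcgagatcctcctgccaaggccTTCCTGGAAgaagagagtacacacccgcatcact
Irf7, chr7:141266436-141266465, minus strand: tgcccgaagtacTATAAAagcactggcacc
The Irf2 stretch holds both motifs, the ISRE core 241 to 232 bases and the GAS 224 to 216 bases before the start, and they do not overlap. In Stat2 the ISRE core lies on the other strand, 222 to 213 bases before the start, and Irf1 and Ifnar2 hold a GAS only, 90 to 82 and 214 to 206 bases before it. Irf7 holds neither in this window but TATAAA 29 to 24 bases before its RefSeq start. The span of Irf7 in GENCODE M21 begins upstream of that start. An ISRE core was found for 2 and a GAS for 3 of the 8 genes, against 3.46% and 8.13% of all 27025 genes with a window, and TATAAA for 1 of 8 against 8.94%. Of 25 ISGF3 target genes with a window, 7 held an ISRE core and 5 a GAS. A match in letters is a description and not a bound site.

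The smallest library total was in MEP, which had 3.44 to 36 megareads assigned to genes. LT-HSC libraries had 16.9 to 45.8, c-kit+ libraries 27.4 to 40 and CMP/GMP libraries 33.2 to 47.7 megareads. Dnmt3a RNA was 47.9 to 49.3 normalised CPM (counts scaled to megareads of TMM-adjusted library size) in c-kit+ Dnmt3a knockout against 82 to 90.6 in WT. The groups did not overlap in c-kit+ cells or CMP/GMP, but overlapped in LT-HSC (38.7 to 104 against 69.7 to 217) and MEP (1.44 to 43.8 against 29.2 to 50.1). Tmem173 was 10.1 to 11.8 CPM in Sting knockout and DKO against 44.7 to 66.8 in the other c-kit+ libraries. The sums of the stem cell and MEP markers fitted the labels of the sorted cells. The 8 stem cell markers summed to 909 to 1710 CPM in LT-HSC and to at most 255 elsewhere. The 8 erythroid and megakaryocytic markers summed to 4050 to 11400 CPM in MEP and to at most 1760 elsewhere. Not each of them was highest in WT MEP. Itga2b was higher in WT CMP/GMP by 1.48 and Zfpm1 in WT LT-HSC by 1.33 log2 units, and neither difference was called. For CMP/GMP, 8 markers summed to 6440 to 32600 CPM there and to at most 3390 in the other sorted libraries. In c-kit+ libraries these summed to 13700 to 21700 CPM, within the range of CMP/GMP. Of the LT-HSC libraries, WT 1 and Dnmt3a knockout 2 stood apart, with correlations of 0.582 to 0.631 and 0.632 to 0.645 with the others of their group. In MEP Dnmt3a knockout, replicate 1 correlated with the others at 0.629 to 0.699 and replicate 2, the shallowest library, at 0.629 to 0.716. MEP Dnmt3a knockout 3 and 4 were closely alike, at 0.987, against 0.629 to 0.716 for every other pair of that group. CMP/GMP WT 2 and 4 were also closely alike, at 0.988, against 0.869 to 0.917 for the other pairs. Whether these pairs are independent replicates was not tested. All c-kit+ WT and Sting knockout libraries showed reads of Y-linked genes, both Dnmt3a knockout libraries showed Xist, and the DKO group was mixed (replicate 1 Xist, replicates 2 and 3 Y-linked). The difference between Dnmt3a knockout and WT in c-kit+ cells can therefore not be told apart from the sex of the cells.

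In c-kit+ cells lacking Dnmt3a, Irf7 rose 1.55 ± 0.24 on the log2 scale (SE; WT n = 2, Dnmt3a knockout n = 2), and was the 1 of 9 genes called, against 0.568% of all 16026 genes tested. In 8 of the 9 genes the libraries of both groups did not overlap, 6 higher and 2 lower in Dnmt3a knockout, where 53.9% of all genes tested did not overlap between these pairs of libraries. Of these 8, Irf7 alone passed the test. The receptor chains, Irf1 and Irf2 differed from WT by values between -0.17 and 0.10.

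Irf7, the amplifier, had 9.86 and 8.7 normalised CPM in WT (310 and 339 reads), against 32.9 and 21 CPM in Dnmt3a knockout (1175 and 590 reads). It had 7.91 and 6.77 CPM in Sting knockout and 6.05, 4.02 and 5.27 CPM in DKO. The Dnmt3a knockout libraries stood above all the others, and every DKO library lay below every Sting knockout and WT library. The rise over WT had a 95% interval of 1.01 to 2.09 and an adjusted p of 0.027 in edgeR's quasi-likelihood test. In the c-kit+ comparisons a term for sex is estimated from the DKO group alone, the only group with both kinds of library, of which 1 showed Xist. With sex as a covariate the rise was 1.18 with an adjusted p of 0.676. Without any single WT or Dnmt3a knockout library it was 1.20 to 1.81, with adjusted p-values of 0.053 to 0.289, so the call rested on having both libraries of each group.

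Irf9, the DNA-binding subunit of ISGF3, had 36.3 and 37.2 CPM in WT, against 64.1 and 59.6 CPM in Dnmt3a knockout. It had 35.5 and 28.2 CPM in Sting knockout and 35.9, 21.2 and 30.8 CPM in DKO. The Dnmt3a knockout libraries lay above all others, and the other 3 groups together ran from 21.2 to 37.2 CPM. Among these, both WT libraries lay above every Sting knockout and DKO library, while Sting knockout and DKO overlapped. The difference from WT was 0.77 ± 0.202 on the log2 scale with an adjusted p of 0.129. Usp18, the ISG15 protease that blocks the receptor, had 3.85 and 5.39 CPM in WT, against 13.4 and 9.17 CPM in Dnmt3a knockout. It had 2.65 and 3.34 CPM in Sting knockout and 5.44, 3.23 and 2.03 CPM in DKO. Again the Dnmt3a knockout libraries were highest, and the other groups overlapped in part. The difference from WT was 1.30 ± 0.4 with an adjusted p of 0.175. DESeq2 called Irf7, Irf9 and Usp18 together.

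Stat2, the partner of Irf9 in ISGF3, had 44.8 and 39.4 CPM in WT, against 59.5 and 46.6 CPM in Dnmt3a knockout. The knockout libraries stood above WT, but the lower one lay within the DKO range of 43.5 to 47.7 CPM. The log2 difference from WT was 0.35 ± 0.125 with an adjusted p of 0.217. Jak1, the kinase bound to IFNAR2, had 276 and 265 CPM in WT, against 315 and 301 CPM in Dnmt3a knockout, a log2 difference of 0.20 with an adjusted p of 0.239. Ifnar1 had 78.4 and 74.8 CPM in WT, against 69.7 and 65.4 CPM in Dnmt3a knockout, which did not overlap, yet the difference of -0.17 (95% interval -0.41 to 0.08) had an adjusted p of 0.488. Ifnar2 differed by 0.04 (-0.13 to 0.21), Irf1 by -0.12 (-0.40 to 0.16) and Irf2 by 0.10 (-0.14 to 0.34). None of these 4 intervals reached beyond -0.41 or 0.34.

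**Figure D1:**
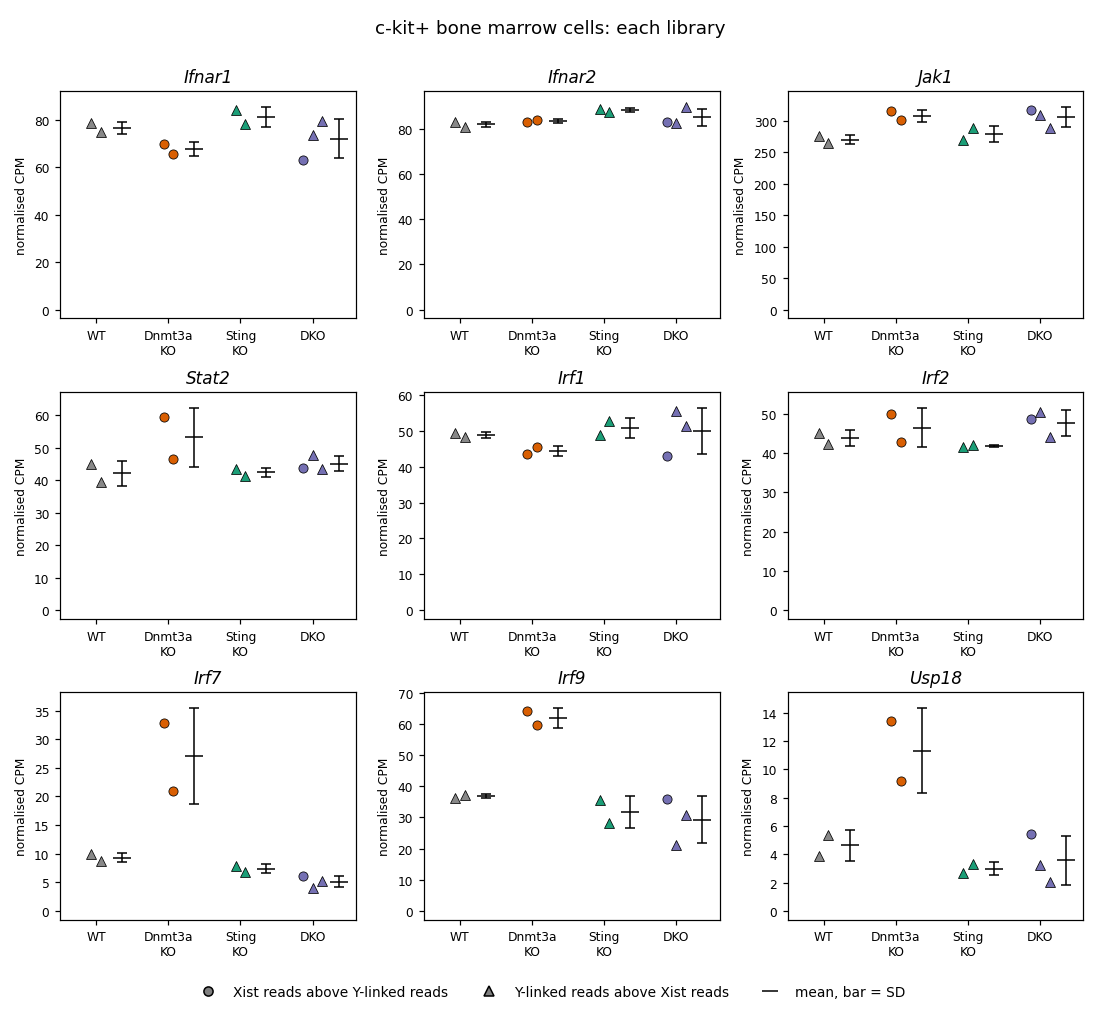
Normalised CPM of the 9 genes in each c-kit+ library, by genotype, with the group mean and SD beside the points; circles are libraries with Xist reads and triangles those with Y-linked reads. Irf7, Irf9 and Usp18 are highest in both Dnmt3a knockout libraries, with 21 to 32.9, 59.6 to 64.1 and 9.17 to 13.4 CPM, while Ifnar2 stays between 80.9 and 89.5 CPM in all 9 libraries.

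With Sting lost as well as Dnmt3a, Irf7 fell by 2.40 ± 0.217 on the log2 scale in DKO against Dnmt3a knockout (95% interval -2.89 to -1.92, adjusted p = 0.00668, DKO n = 3, Dnmt3a knockout n = 2). It was the 1 of 9 genes called, against 0.156% of all genes tested. Irf9 differed by -1.09 ± 0.182 (adjusted p = 0.0809) and Usp18 by -1.67 ± 0.359 (adjusted p = 0.289), both below every Dnmt3a knockout library in every DKO library. With Irf7 these were the 3 of 9 genes whose groups did not overlap, against 24.4% of all genes. Stat2 differed by -0.25 with an adjusted p of 0.641, and the other 5 genes by no more than 0.16 in either direction.

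The sex of the libraries touches this comparison too, since both Dnmt3a knockout libraries and 1 of 3 DKO libraries showed Xist. Among Xist libraries alone, DKO 1 lay below the mean of both Dnmt3a knockout libraries by -1.99 for Irf7, -0.77 for Irf9 and -0.93 for Usp18 on the log2(CPM + 1) scale, with 1 library in the DKO arm and no test. With a term for sex the Irf7 difference was -2.17 with an adjusted p of 0.567. Without Dnmt3a knockout 1 it was -2.06 with an adjusted p of 0.101, and no gene of the axis was called. Under all 14 alternatives the Irf7 difference lay between -2.67 and -2.06.

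Where Dnmt3a was intact, loss of Sting left no called change in the axis, against 0.774% of genes called in the same comparison. At an unadjusted p under 0.05, 1845 of 16026 genes passed there, none of them of the axis, and DESeq2 called none of the 9 genes either. Irf7 differed by -0.35 ± 0.241 (adjusted p = 0.619), Usp18 by -0.64 ± 0.409 (adjusted p = 0.591) and Irf9 by -0.22 ± 0.203 (adjusted p = 0.724). All libraries of both groups showed Y-linked reads.

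Whether the effect of Dnmt3a loss differed with and without Sting was tested as an interaction, which called 0.15% of all genes and none of the 9. For Irf7 the interaction (DKO minus Sting knockout, less Dnmt3a knockout minus WT) was -2.05 ± 0.325 log2 units (95% interval -2.78 to -1.33, adjusted p = 0.0536). At an unadjusted p under 0.05 it was 1 of 2 genes of the axis, with Irf9 at -0.87 ± 0.273 (adjusted p = 0.464), among 1211 genes in all. DESeq2 called Irf7. Usp18 had -1.03 ± 0.546 (adjusted p = 0.75) and Stat2 -0.24 ± 0.169 (unadjusted p above 0.05). The sex of the libraries is unevenly spread over these groups too, so the interaction cannot be told apart from it. Under all 14 alternatives, a term for sex among them, the Irf7 interaction lay between -2.31 and -1.7.

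Within the Sting-deficient background, DKO and Sting knockout had no called gene of the axis, against 0% of all genes. Irf7 was lower in each DKO library than in each Sting knockout library, by -0.50 ± 0.222 (adjusted p = 0.428). At an unadjusted p under 0.05 it was the only gene of the axis, among 1854 genes, and DESeq2 called none of the 9. Against WT, DKO libraries had lower Irf7 by -0.85 ± 0.22 (adjusted p = 0.0995), in a comparison that called 1.26% of genes and none of the axis. At an unadjusted p under 0.05, Irf7 and Jak1 were among 2676 genes, and DESeq2 called Irf7. These comparisons share the DKO, WT and knockout libraries with those above.

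**Figure D2:**
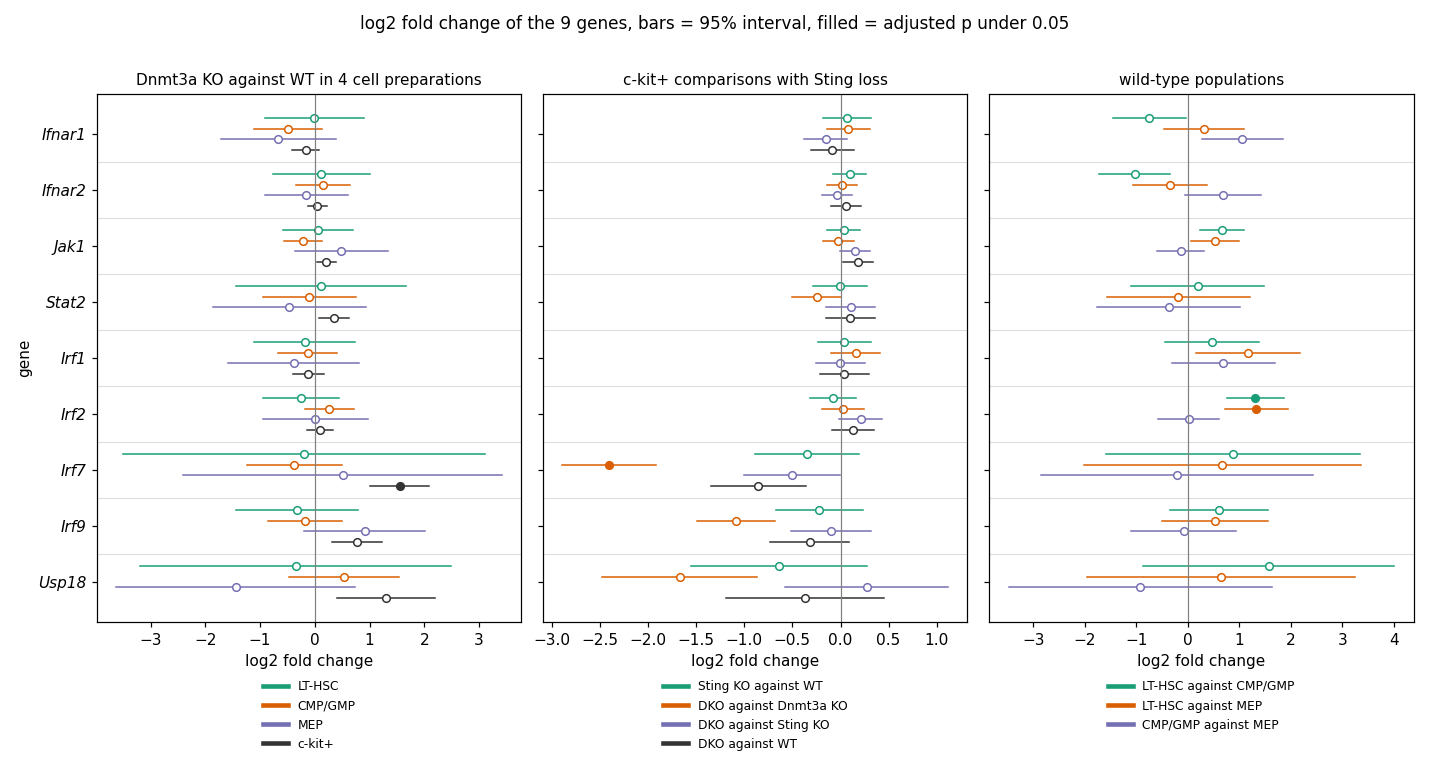
log2 fold change of each gene with its 95% interval in 11 comparisons; the left panel has Dnmt3a knockout against WT in 4 cell preparations, the middle panel the c-kit+ comparisons with Sting loss, the right panel WT populations, and filled points have an adjusted p under 0.05. Irf7 at 1.55 and -2.40 in c-kit+ cells and Irf2 at 1.31 and 1.33 in LT-HSC are the filled points.

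In the sorted populations no gene of the axis passed the test of Dnmt3a knockout against WT, and no other gene did either. The share of genes called was 0% in LT-HSC, in CMP/GMP and in MEP, with 151, 1196 and 1607 genes at an unadjusted p under 0.05, none of them of the axis. DESeq2 called 42, 334 and 664 genes and none of the 9. The Irf7 call made in c-kit+ cells was not made in these groups, where the intervals are wide.

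Irf7 varied widely within these groups. In LT-HSC it had 0, 32.4, 7.23 and 29 CPM in WT, against 32.2, 0.111, 11.1 and 16.4 CPM in Dnmt3a knockout. The 0 of WT 1 allows up to 0.141 CPM, and the low values are those of the libraries that stood apart. The difference was -0.20 with a 95% interval of -3.51 to 3.10, and -0.21 without both libraries. In MEP it had 4.58, 6.56 and 20.4 CPM in WT, against 32.1, 0, 13.9 and 14.5 CPM in Dnmt3a knockout, a difference of 0.51 with an interval of -2.41 to 3.42. The 0 of Dnmt3a knockout 2 allows up to 0.912 CPM, and without that library the difference was 0.92 (adjusted p = 0.554). CMP/GMP were the most even, with 8.51, 9.37, 5.96 and 13 CPM in WT, against 7.25, 6.34, 7.05 and 7.52 CPM in Dnmt3a knockout. Here the groups overlapped, and the upper bound of the difference of -0.37 (-1.25 to 0.50) lies below the 1.55 of the c-kit+ cells.

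Usp18 was uneven in LT-HSC as well, with 0, 51.6, 11.2 and 24.4 CPM in WT, against 5.36, 6.34, 22.4 and 34.1 CPM in Dnmt3a knockout. In MEP it had 12.1, 16.8 and 11.8 CPM in WT, against 4.89, 0.608, 8.13 and 6.45 CPM in Dnmt3a knockout. All 4 MEP knockout libraries lay below all 3 WT libraries, yet the difference of -1.45 ± 0.974 had an adjusted p of 0.528. Ifnar1 was the other of 2 of 9 genes that did not overlap in MEP, against 12.8% of all genes, with 39.6, 50.5 and 40.3 CPM in WT, against 38.5, 22.5, 25.4 and 24.3 CPM in Dnmt3a knockout. Its difference was -0.67 ± 0.467 with an adjusted p of 0.541. Irf9 had the largest positive difference in MEP, with 43.6, 68.6 and 56.4 CPM in WT. It had 103, 38.3, 133 and 152 CPM in Dnmt3a knockout, where 3 of 4 libraries lay above WT. Replicates 3 and 4, the closely alike pair, are among these, and among the low values of Usp18 and Ifnar1. The Irf9 difference was 0.91 ± 0.491 (adjusted p = 0.453), and 1.18 (adjusted p = 0.325) without Dnmt3a knockout 2, the library below WT. In LT-HSC and CMP/GMP all 9 genes overlapped between genotypes, where 1.71% and 5.63% of all genes did not. Sums of cell markers also differed in MEP. The 8 erythroid and megakaryocytic markers summed to 4050 to 7670 CPM in Dnmt3a knockout against 8860 to 11400 CPM in WT, and the 8 stem cell markers to 170 to 255 CPM against 79.8 to 116 CPM, with no overlap in either sum. The single erythroid and megakaryocytic markers did not all go with their sum. Car1 (-1.17), Klf1 (-1.11), Gfi1b, Gata1 and Itga2b were lower in knockout by value, but Zfpm1 (3.11), Tfrc (1.60) and Epor higher. None of the markers that could be tested passed, Fgd5 was at 0 in both groups and Hoxb5 in WT, and their part in the MEP differences was not tested.

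A test of whether the Dnmt3a effect differed between LT-HSC, CMP/GMP and MEP called 0.0186% of 16136 genes and none of the axis. The adjusted p-values of the 9 genes ran from 0.575 for Irf9 to 1 for Irf1. At an unadjusted p under 0.05 none of the 9 was among the 1929 genes, and DESeq2 called 166 genes and none of the 9.

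**Figure D3:**
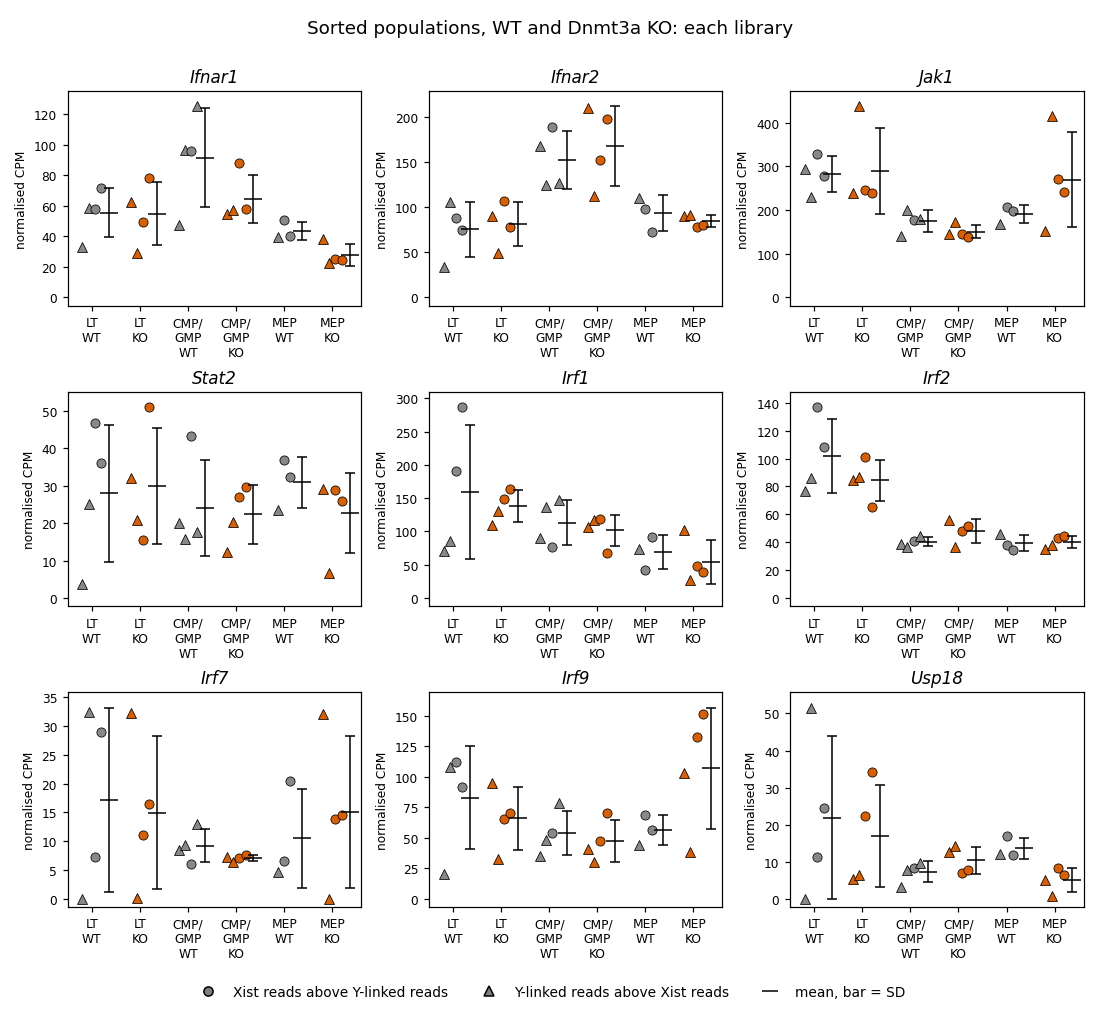
Normalised CPM of the 9 genes in each sorted library, WT in grey and Dnmt3a knockout in orange, circles for libraries with Xist and triangles for those with Y-linked reads, with the group mean and SD beside the points and the lower bar ending at 0 where the SD exceeds the mean. Irf2 is 65.4 to 137 CPM in the LT-HSC libraries and at most 56.2 CPM in the others, while Irf7 and Usp18 spread from 0 to 32.4 and 51.6 CPM within WT LT-HSC.

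Between WT populations, the clearest difference of the axis was in Irf2, the mostly repressive factor, which was highest in stem cells. Irf2 had 76.6, 86, 137 and 108 CPM in LT-HSC, 39, 36.8, 41 and 44.5 CPM in CMP/GMP, and 45.9, 37.9 and 34.5 CPM in MEP. All LT-HSC libraries stood above all progenitor libraries, and CMP/GMP and MEP overlapped. Groups did not overlap for 3 of 9 genes between LT-HSC and CMP/GMP (Irf2, Jak1 and Ifnar2), against 18% of all genes, and for 2 of 9 between LT-HSC and MEP (Irf2 and Jak1), against 24.2%. LT-HSC exceeded CMP/GMP by 1.31 ± 0.26 log2 units (adjusted p = 0.00886, n = 4 and 4) and MEP by 1.33 ± 0.287 (adjusted p = 0.0096, n = 4 and 3). It was the 1 of 9 genes called in each, against 8.74% and 13.2% of 14663 genes.

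The Irf2 pattern was present among libraries of either sex. Libraries with Y-linked reads had 76.6 and 86 CPM in LT-HSC against 36.8 to 44.5 CPM in CMP/GMP and 45.9 in MEP, and those with Xist had 108 and 137 against 41 and 34.5 to 37.9. In Dnmt3a knockout cells Irf2 was again higher in LT-HSC (84.4, 87.1, 101 and 65.4 CPM) than in CMP/GMP (36.5 to 56.2 CPM) and MEP (35.4 to 44.1 CPM), with no overlap. These differences, 0.81 and 1.04, had adjusted p-values of 0.285 and 0.0575, in comparisons that called 0.671% and 9.89% of 13565 genes. In the knockout cells Irf1, the activating factor, was called instead between LT-HSC and MEP, at 1.33 ± 0.397 (adjusted p = 0.0483), with 109 to 164 CPM against 26.8 to 102 CPM. Between CMP/GMP and MEP of the knockout cells 5.51% of genes and 0 of the axis were called. There Ifnar1 (1.19, adjusted p = 0.0861), Ifnar2 (0.96, adjusted p = 0.0798), Jak1 (-0.87, adjusted p = 0.112), Irf1 (0.90, adjusted p = 0.162) and Irf9 (-1.21, adjusted p = 0.118) were among 3617 genes with an unadjusted p under 0.05. In WT cells the Irf1 difference between LT-HSC and MEP was 1.16 ± 0.469 with an adjusted p of 0.117. Without MEP WT 4 the Irf2 difference from MEP was 1.24 with an adjusted p of 0.0543.

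The receptor chains and their kinase did not share one order over the populations. Ifnar2 had 34.1, 105, 87.3 and 74.9 CPM in WT LT-HSC and 167, 124, 189 and 127 CPM in WT CMP/GMP. The groups did not overlap, and LT-HSC differed by -1.03 ± 0.316 with an adjusted p of 0.058. Jak1 went the other way, with 293, 229, 327 and 278 CPM in LT-HSC and 140, 201, 177 and 180 CPM in CMP/GMP. These did not overlap either, at 0.66 ± 0.198 with an adjusted p of 0.0545. Ifnar1 was highest in CMP/GMP, with 47.2, 96.5, 96 and 125 CPM, against 33.2 to 71.7 CPM in LT-HSC and 39.6 to 50.5 CPM in MEP. Its difference between CMP/GMP and MEP was 1.06 ± 0.365 with an adjusted p of 0.149, where 3.47% of genes were called and none of the axis. At an unadjusted p under 0.05 Ifnar1 was the only gene of the axis there, and DESeq2 called it. In bulk RNA, fewer cells of a type and less RNA per cell cannot be told apart.

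The c-kit+ and the sorted libraries stood apart as preparations: 18713 to 19514 genes were detected in each c-kit+ library against 10706 to 15068 in each sorted one. Levels set across both cannot be told apart from that difference. Over all 10 groups, Usp18 and Irf7 spanned the widest range. The highest and lowest group means differed 7.29-fold for Usp18, from 2.99 ± 0.489 CPM in c-kit+ Sting knockout (SD, n = 2) to 21.8 ± 22.2 in WT LT-HSC (n = 4). They differed 5.27-fold for Irf7, from 5.11 ± 1.02 in DKO (n = 3) to 27 ± 8.37 in c-kit+ Dnmt3a knockout (n = 2). Irf9 followed with 3.64-fold, Irf1 with 3.57-fold and Ifnar1 with 3.29-fold. Jak1 with 2.06-fold and Ifnar2 with 2.22-fold spanned the least. In the order of group means, neighbours overlapped throughout for Jak1 and Usp18. Irf2 broke between LT-HSC Dnmt3a knockout (84.5 ± 14.7 CPM, n = 4) and CMP/GMP Dnmt3a knockout (48.1 ± 8.46 CPM, n = 4), and Ifnar2 between WT CMP/GMP (152 ± 31.7 CPM, n = 4) and WT MEP (93.2 ± 19.6 CPM, n = 3). The lowest group did not overlap its neighbour for Ifnar1 (MEP Dnmt3a knockout), Irf1 (c-kit+ Dnmt3a knockout) and Irf7 (DKO), and the 4 c-kit+ means of Stat2, 42.1 to 53.1 CPM, were above the sorted means, of which WT MEP was highest at 30.9 CPM, although single LT-HSC and CMP/GMP libraries overlapped.

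To set genes beside each other, levels were divided by the joined length of all annotated exons of a gene, which can exceed the length of its RNA. For Irf7 these 3776 bases fill its whole span, so the order of genes is only rough. Per kilobase of such exons, Jak1 was the most abundant in c-kit+ WT cells at 37.4 CPM per kb. Ifnar2 followed with 24.6, Ifnar1 with 12.9 and Irf1 with 12.3 CPM per kb. Stat2 had 7.1, Irf9 6.83, Irf2 5.92, Irf7 2.46 and Usp18 1.66 CPM per kb. Ifnar2 thus exceeded its partner chain Ifnar1 in level, and did so in all 10 groups, with 22.6 against 9.33 CPM per kb in WT LT-HSC and 45.7 against 15.4 in WT CMP/GMP. In WT LT-HSC Irf1 reached 40 ± 25.4 CPM per kb, beside 39 ± 5.62 for Jak1. In c-kit+ Dnmt3a knockout Irf7 reached 7.15 and Usp18 4.05 CPM per kb, beside 6.29 for Irf2.

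The interferon genes themselves were hardly seen. Of 21 ligand genes, 1 (Ifng) passed the filter in c-kit+ cells, at 0.278 to 0.825 CPM, and Ifnb1 was listed at 0 in all libraries. The 21 together summed to at most 0.894 CPM in a c-kit+ library and 4.06 CPM in any other. Among 8 other receptor chains and kinases of the pathway none was called in c-kit+ Dnmt3a knockout against WT, with a median of 0.12 log2 units. None of 8 other IRF family genes was called, with a median of -0.45, nor any of 11 tested negative regulators, with a median of -0.02.

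The genes downstream of ISGF3 were counted from a list chosen with earlier results of these data known, so the counts are descriptions. In c-kit+ Dnmt3a knockout against WT, 10 of 32 ISGF3 targets rose and 0 fell, with 31 of 32 values positive and a median of 0.72 log2 units against -0.0012 over all genes. The largest called were the oligoadenylate synthetases, sensors of double-stranded RNA, with Oas2 at 2.49 ± 0.358 (adjusted p = 0.0186), Oas3 at 2.40 ± 0.26 (adjusted p = 0.00685) and Oas1a at 1.69 ± 0.225 (adjusted p = 0.015). In DKO against Dnmt3a knockout, 15 of 32 fell and 0 rose, with 31 of 32 values negative and a median of -1.01 against 0.0125 over all genes. Ifit3, which binds with Ifit1 to foreign RNA, fell by 3.06 ± 0.42 (adjusted p = 0.0276), Rtp4 by 2.84 ± 0.362 (adjusted p = 0.0212) and Oas2 by 2.69 ± 0.313 (adjusted p = 0.0185).

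The counts of targets have the same limits as the Irf7 calls. With a term for sex both counts were 0, with medians of 0.52 and -0.98. The count of 10 was 0 without WT 1, WT 2 or Dnmt3a knockout 1 and 1 without Dnmt3a knockout 2, and the count of 15 was 0 without either Dnmt3a knockout library. Within the Xist libraries, 31 of 32 targets were lower in DKO 1 than in the mean of both Dnmt3a knockout libraries, with a median of -0.82 and no test. Within the libraries with Y-linked reads, 24 of 32 were lower in DKO than in WT (median -0.27) and 23 of 32 lower in Sting knockout than in WT (median -0.15).

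**Figure D4:**
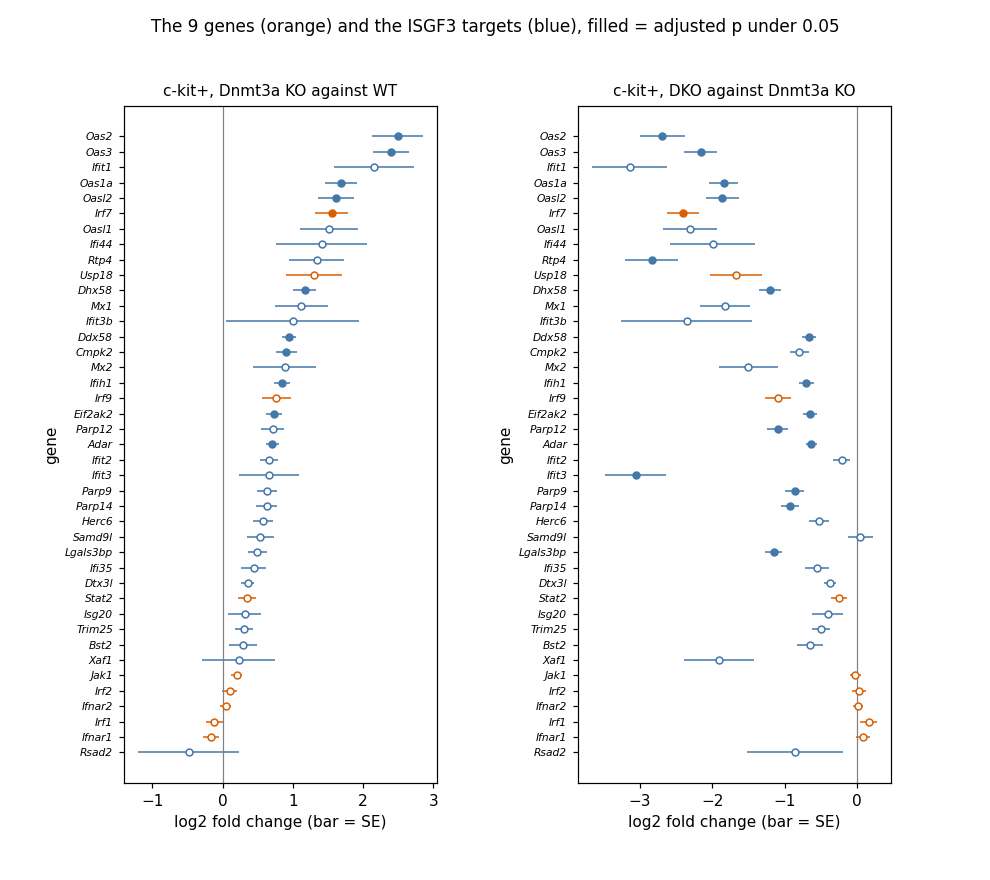
log2 fold change and SE of the 9 genes (orange) and the 32 ISGF3 targets (blue) in c-kit+ cells, ordered by the Dnmt3a knockout against WT difference; filled points have an adjusted p under 0.05. Irf7, Usp18 and Irf9 lie among the targets in both panels, while Jak1, Irf2, Ifnar2, Irf1 and Ifnar1 lie between -0.17 and 0.20 on the left and between -0.02 and 0.16 on the right.

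The other branch of the response was followed in the targets of IRF1 and gamma interferon. Of 26 of these, 0 passed the test in c-kit+ Dnmt3a knockout against WT, with a median of 0.12. The most abundant, B2m of the class I complex and the immunoproteasome subunit Psmb8, differed by 0.26 (adjusted p = 0.193) and -0.39 (adjusted p = 0.159). In DKO against Dnmt3a knockout 1 of 26 fell, the GTPase Iigp1 by 2.30 ± 0.284 (adjusted p = 0.0212), with a median of -0.42. In Sting knockout against WT the chemokine Cxcl9 fell by 2.92 ± 0.455 (adjusted p = 0.0225). The sum of 8 macrophage markers was 1400 to 1490 CPM in c-kit+ WT, 556 to 573 in Dnmt3a knockout, 338 to 365 in Sting knockout and 365 to 540 in DKO. All 8 were detected in every group, 3 of 8 (Vcam1, Cd68 and Hmox1) fell in Dnmt3a knockout against WT, and their part in these results was not tested. The sum of 8 plasmacytoid dendritic cell markers, of cells known for high Irf7, was 100 to 101 CPM in Dnmt3a knockout, where Klk1 was at 0, 111 to 129 in WT and 94.1 to 112 in the others. Bst2 stands in this list and among the ISGF3 targets. The sum of the 8 stem cell markers was highest in Dnmt3a knockout, at 116 to 126 CPM, against 93.3 to 93.6 in WT, 73.3 to 81.6 in Sting knockout and 70.6 to 108 in DKO. All 8 were detected in each of these groups, 0 of 8 passed the test in Dnmt3a knockout against WT (median 0.41) or in DKO against Dnmt3a knockout (median -0.51), and their part in the results for Irf7 and the ISGF3 targets was not tested.

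In the sorted populations 0 of 29, 0 of 28 and 0 of 26 tested ISGF3 targets passed the test of Dnmt3a knockout against WT in LT-HSC, CMP/GMP and MEP, with medians of 0.0063, -0.07 and 0.02. Between WT populations, 2 of 29 were higher in LT-HSC than in CMP/GMP (Ifi44 at 4.18 ± 1.01, adjusted p = 0.0228, and Ifih1 at 1.32 ± 0.336, adjusted p = 0.0288), with a median of 0.69 against 0.085 over all genes. Against MEP, 4 of 29 were higher in LT-HSC, with a median of 0.92 against 0.17. Over all 14663 genes, 620 were higher in LT-HSC than in CMP/GMP and 1051 higher than in MEP, and with both directions 8.74% and 13.2% were called, so neither count of targets is read as a result about them. Of 25 targets of IRF1 and gamma interferon, 9 were higher and 1 lower in LT-HSC than in MEP, with a median of 1.96. Irf8, the factor of monocyte and dendritic cell fate, was lower in LT-HSC than in CMP/GMP by -3.86 ± 1.02 (adjusted p = 0.0335), opposite in sign to Irf2. The gamma receptor chain Ifngr1 was lower by -1.47 ± 0.34 (adjusted p = 0.0188), as Ifnar2 was in value. The inhibitor Socs3 was higher by 2.86 ± 0.645 (adjusted p = 0.0165).

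The genes whose pattern over the 10 group means was most like each member were sought among 10123 genes, and the values are descriptions, since the groups share libraries' depth and cell makeup and the c-kit+ groups differ from the sorted ones in preparation. Irf7 was most like Pot1a (r = 0.757), Oas1a (0.756) and D2hgdh (0.728), and Irf9 most like Irgm1 (0.89), Arid4b (0.849) and Xaf1 (0.847). Usp18 was most like Zfp2 (0.869), Zc3h8 (0.82) and Mettl25 (0.814). The likeness was closer for the other genes of the axis: Irf2 with Pim3 (0.989), Irf1 with Mfng and Leprotl1 (each 0.989), Ifnar1 with Vav1 (0.983), Jak1 with St3gal1 (0.977), Stat2 with Whsc1l1 (0.976) and Ifnar2 with Paox (0.968). Among the 9 genes themselves, r ran from -0.877 for Ifnar2 with Jak1 to 0.697 for Irf1 with Irf2, and was 0.428 for Irf7 with Usp18 and -0.0628 for Irf7 with Irf9. The genes did not form one common pattern across the groups.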

How the data were processed

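The deposited table holds raw read counts per gene symbol. Per the submitters' processing notes, Trim Galore 0.6.7, HISAT2, featureCounts 2.0.1 and DESeq2 1.34.0 were used with mm10. Per the labels' protocols, cDNA was amplified with a modified SMART-Seq2 protocol. No source used here gives the annotation, the strand setting or the handling of multi-mapping reads. Of 40 columns, 32 were matched to 1 library, and 8, which repeat the same names, were not used.

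In R 4.3.3, genes were tested with edgeR 4.0.16 (TMM, filterByExpr with minimum count 10 and minimum total 15, quasi-likelihood test, Benjamini-Hochberg adjustment over all genes, called at an adjusted p under 0.05), and the step was tested on simulated data. Separate fits covered the genotypes within each sorted population, the 9 c-kit+ libraries, and the populations within each genotype. A floor for 0 reads is 3 counts. The members, the lists and the rule for named genes (the members, up to 3 called genes per list, otherwise the 2 most abundant, and the 3 most alike) were chosen with earlier results of these data known. Alternatives were DESeq2 1.42.0, RLE size factors, no filter, the replicate number as a block, a term for sex, and leaving out each library. No pair of replicates agreed within counting noise. Values of 1 listed gene are not reported here.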

Additional observations from a re-analysis of the deposited data

Results flagged for a closer look

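In 45 tests, each of 1 gene in 1 group of 4 libraries, for a value far from the others, 4 stood out. Chance flags about 1 in 20 of such tests, which here share libraries and are not independent. Jak1 was 437 CPM in LT-HSC Dnmt3a knockout 2, against 238 to 245 CPM in the other 3, and that library stood apart in its correlations too. Stat2 was 6.69 CPM in MEP Dnmt3a knockout 2, the shallowest library, against 25.8 to 29.1 CPM in the others. Stat2 was 43.2 CPM in CMP/GMP WT 3 against 15.7 to 20 CPM, and Ifnar1 was 88.2 CPM in CMP/GMP Dnmt3a knockout 3 against 54.6 to 58 CPM.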

How the results depend on the processing

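No fold change of the 9 genes that passed the test changed sign under any alternative, and 95 values that did not pass did. DESeq2 called 3 genes of the axis in c-kit+ Dnmt3a knockout against WT and 3 in DKO against Dnmt3a knockout (Irf7, Irf9 and Usp18 in each), 1 in DKO against WT, 1 in the interaction (Irf7 in both), 3 in LT-HSC against CMP/GMP (Ifnar2, Jak1, Irf2), 2 in LT-HSC against MEP (Jak1, Irf2) and 1 in CMP/GMP against MEP (Ifnar1). Without the filter on low counts the c-kit+ counts were 3, 3, 1 and 2 in the same order. With the replicate block Irf7 was called in DKO against WT and in the interaction, 1 gene each, and no other count of called members changed. No source used here says whether the replicate numbers pair samples. Deviations of same-numbered libraries from their group means correlated at 0.049 to 0.186 between WT LT-HSC and CMP/GMP. They correlated at 0.0397 to 0.122 between WT LT-HSC and MEP, but at -0.242 to 0.124 between genotypes of LT-HSC. Pairing is thus not settled, and the main tests treat the libraries as independent. Exchanging the numbers of the c-kit+ Dnmt3a knockout libraries, chosen after seeing the data, left 1 gene called. With a term for sex the 2 c-kit+ calls became 0 and 0. RLE size factors called 2 in LT-HSC against CMP/GMP (Jak1, Irf2), and Dnmt3a knockout in place of WT, chosen after seeing the data, called 0. Leaving out 1 library gave 0 to 2 in Dnmt3a knockout against WT, 0 to 3 in DKO against Dnmt3a knockout, 0 to 1 in the interaction, 1 to 5 in LT-HSC against CMP/GMP (5 without LT-HSC WT 1) and 0 to 2 in LT-HSC against MEP. The cause was not tested. Over all genes, DESeq2 called 618 and no filter 1219 in c-kit+ Dnmt3a knockout against WT, beside 91. Low counts limit Usp18 and Irf7 most.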

Other observations

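Isg15, whose protein USP18 removes from its targets, was listed at 0 in every c-kit+ library and at no more than 0.122 CPM in any other. Other ISGF3 targets such as Oas2 and Ifit3 were measured in every c-kit+ group. Among sorted groups, Ifit3 was at 0 in both CMP/GMP groups, WT LT-HSC and MEP Dnmt3a knockout, and Oas2 in MEP Dnmt3a knockout. No statement on Isg15 is drawn from this.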
